A study of Mus musculus with 34 samples.

Results

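The genes described here are the cytosolic ribosomal protein genes of the mouse, followed through RNA-seq of the hippocampus of aged Hdac1 mutant and 5XFAD mice and of GFAP+ nuclei sorted from the cortex. They were taken by symbol: every gene whose symbol begins with Rpl or Rps followed by a digit, without the Rps6k kinases and without symbols that contain -ps. The rule found 83 of the 23951 genes listed, 49 with an Rpl symbol (large subunit) and 34 with an Rps symbol (small subunit). It left out 10 Rps6k genes and 6 -ps genes. One gene that it kept, Rps19bp1, encodes a binding partner of a ribosomal protein and is not itself a subunit. The rule uses names only and no measured value.

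The samples used, 27 of the 34, fall into 4 hippocampal groups and a pair of nuclei groups. The hippocampal groups were 4 control mice (Hdac1 f/f), 5 Hdac1 cKO mice (Hdac1 f/f;Nestin-Cre), 6 5XFAD mice (Hdac1 f/f, 5XFAD) and 5 compound mice that carry both (Hdac1 cKO;5XFAD). The nuclei groups were 3 control libraries (Hdac1 f/f) and 4 Hdac1 cKO libraries, from nuclei stained for GFAP and for the neuronal antigen NeuN. All groups thus carry the floxed Hdac1 alleles. The control and Hdac1 cKO hippocampi are labelled as 13 to 14 months of age and the others as 13 months, and the study describes its mice as male. Nestin-Cre removes Hdac1, a histone deacetylase, from neurons and astrocytes but not from microglia, and the 5XFAD transgenes, which carry familial Alzheimer's disease mutations, are driven by the neuronal Thy1 promoter. The control and Hdac1 cKO hippocampi were described under one protocol text and the 5XFAD and compound hippocampi under another, so in any comparison that crosses these texts the genotype and the deposit cannot be told apart. The labels name each library as a separate sample of its genotype.

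A cytosolic ribosome is built from a large and a small subunit, each an assembly of ribosomal RNA and many proteins that are needed in equal numbers. Their mRNAs are among the most abundant of any cell, are short, and mostly begin with a run of pyrimidines (the 5′ terminal oligopyrimidine or TOP motif), through which mTOR signalling and LARP1 control their translation together. In the brain they are found in neuronal processes as well as in cell bodies and in glia, and, like other long-lived cytoplasmic mRNAs, they are sparse in the nucleus.

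The start of these genes was read first, since the pyrimidine run is a feature of sequence that the choice by symbol did not use. Start-site windows (RefSeq, GRCm38.p6; 250 bases before and 50 bases after the annotated start) matched 63 of the 83 genes by symbol, with 75 windows. A pyrimidine run of at least 8 bases within 20 bases of the start was found in 30 of these 75 windows (40%), against 16.0% of all 32851 windows. The longest run there had a median of 7 bases in the ribosomal protein genes and 5 in all windows. Genes with long runs within 15 bases of the start are shown first, followed by 3 genes whose levels are described further on. Each line gives 15 bases on either side of the annotated start, 5′ to 3′ on the strand of the gene, and capitals mark the longest pyrimidine run.
Rpl7a (chr2:26910792-26910821, plus strand): aTTCCCTCTTCTTTCTTTCTCCagcagccg
Rpl27a (chr7:109519180-109519209, plus strand): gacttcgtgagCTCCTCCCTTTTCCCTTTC
Rpl34 (chr3:130730323-130730352, minus strand): CCTTCCTTTTCCTCTTCCggggacggtgct
Rpl35 (chr2:39005117-39005146, minus strand): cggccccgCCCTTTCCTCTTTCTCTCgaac
Rpl15 (chr14:18270972-18271001, minus strand): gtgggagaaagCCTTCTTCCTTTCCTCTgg
Rps27 (chr3:90213634-90213663, minus strand): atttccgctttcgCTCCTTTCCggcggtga
Rpl41 (chr10:128549154-128549183, minus strand): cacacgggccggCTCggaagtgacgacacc
Rps4x (chrX:102189377-102189406, minus strand): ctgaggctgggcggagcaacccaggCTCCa
Within the printed bases the longest run was 21 bases in Rpl7a and 3 in Rpl41. The runs of Rpl27a and Rpl34 reach the edge of the printed bases and may be longer. Other short motifs were searched on both strands of the 300 bases, and they may overlap each other. CTTTCC was present in 50.7% of the ribosomal protein windows and 26.6% of all windows, GGGCGG in 58.7% and 35.7%, CCGGAAG in 33.3% and 8.86%, and AAGATGGC in 10.7% and 2.75%. A match describes the letters alone.

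In control hippocampus the ribosomal protein genes together held 15.8% ± 0.239 (SD, n = 4) of all FPKM (a read density scaled to the length of the transcript and to the reads mapped in the library). They supplied 46 of the 147 genes above 1000 FPKM, and between 28 and 33 of the 100 highest genes in each of the 20 hippocampal libraries. Of the 83 genes, 79 were above 0 in every library of both tissues, and each library listed between 0 and 3 of them at 0. By single symbols the highest was Rpl41, which encodes a very short protein of the large subunit, at 9908 ± 818 FPKM (n = 4). It was followed by Rps27rt at 7752 ± 501 FPKM, which shares its coding sequence with Rps27, and by Rps29 at 7019 ± 439, Rpl38 at 7011 ± 450 and Rps28 at 5329 ± 225 FPKM. Summed, Rps27 and Rps27rt were at 10444 ± 377 FPKM (n = 4), which exceeds the mean of Rpl41 by less than the SD of Rpl41. The means of Rps29 and Rpl38 differed by far less than their SD, and the 5 highest genes in each library held 25.3% to 30.01% of the FPKM of the whole family.

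At the other end, Rpl10l was listed at 0 in all 4 controls, Rpl39l had a mean of 0.0868 FPKM and Rpl3l one of 0.668 FPKM. Rps4l (26.7 ± 9.41 FPKM) and Rpl7l1 (29.99 ± 2.23 FPKM) came next, and Rpl30, a subunit of the large subunit, was close to them at 30.1 ± 7.15 FPKM. Levels are given per length of transcript although the hippocampal libraries sample the 3′ end, and longer transcripts stood lower on this scale. Over the 81 genes with a transcript length, control FPKM and length had a Spearman correlation of -0.53. For FPKM times length the correlation with length was -0.15. The length is that of a single annotated coding transcript per gene, which need not be the length behind the FPKM. The product therefore need not undo the division by length exactly. Both values are descriptions over genes that share the same libraries. The summed Rpl FPKM divided by the summed Rps FPKM lay between 0.989 and 1.08 in the 20 hippocampal libraries.

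The genes varied little between mice. The median coefficient of variation (SD over mean) was 6.25% for the ribosomal protein genes in controls, against 18.8% for the other genes tested. Among genes of at least 200 FPKM the distance was smaller, 6.19% for the ribosomal protein genes and 7.65% for the others. In the other groups the medians for these higher genes were 8.56% and 10.3% in Hdac1 cKO, 10.2% and 14.8% in 5XFAD, and 5.45% and 9.0% in compound mice.

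The share of all FPKM was near that of control in each mutant group. It was 16.0% ± 0.654 in Hdac1 cKO (n = 5), 16.1% ± 0.541 in 5XFAD (n = 6) and 16.7% ± 0.565 in compound mice (n = 5). By mouse it ran from 15.5% to 16.1% in controls, from 14.9% to 16.5% in Hdac1 cKO, from 15.5% to 16.7% in 5XFAD and from 16.0% to 17.3% in compound mice. Compound values were the highest as a group, and they overlapped those of each other group. In bulk tissue, fewer cells of a type and less RNA per cell cannot be told apart.

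**Figure D1:**
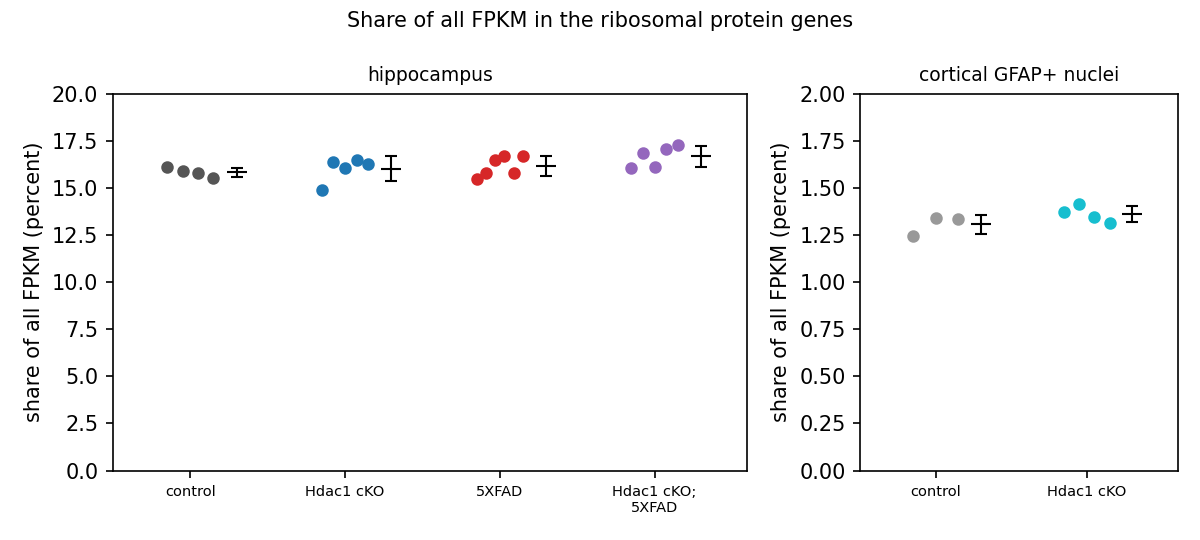
Share of all FPKM (percent, y axis) held by the 83 ribosomal protein genes in each library, with 4 hippocampal groups on the left and the cortical GFAP+ nuclei on the right on a y axis of its own; points are libraries and bars the mean ± SD. The hippocampal libraries sit between 14.9% and 17.3% with overlapping groups, and the nuclei between 1.25% and 1.42%.

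The effect of losing Hdac1 alone was examined in Hdac1 cKO against control hippocampus. Hdac1 itself was at 5.91 to 10.7 FPKM in controls and, without overlap, at 2.36 to 3.03 FPKM in Hdac1 cKO (log2 fold change -1.23, limma adjusted p = 0.0236). No ribosomal protein gene passed the test. Of 81 tested, 0 were called at an adjusted p under 0.05 with limma, where 22 of 14265 genes (0.154%) were called, and 0 were past 1.5-fold with an unadjusted p under 0.05, where 3.36% of genes were. At an unadjusted p under 0.05 alone, 0 were higher and 3 were lower, against 4.91% and 6.84% of all genes. The median log2 fold change of the family was -0.03, against -0.00068 for all genes tested, and it changed sign to 0.0065 after quantile normalization and to 0.03 after rescaling to the genes outside the family. For 76 of the 81 genes (93.8%) the 95% interval of the difference lay inside 1.5-fold in both directions, as it did for 66.1% of all genes.

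The genes with the smallest p in this comparison are given although none passed the test, and they were chosen after their values were seen. Rps27l, a stress-responsive paralog of Rps27 and a known p53 target, was at 257, 239.6, 250.03 and 281 FPKM in controls and at 212, 187, 184, 234 and 188 FPKM in Hdac1 cKO mice. The groups did not overlap, and the log2 fold change was -0.36 (SE 0.089, adjusted p = 0.155). Rpl7, a large subunit protein (chr1:16091376-16094743 in mm9, minus strand), was at 929, 1035, 1063 and 961 FPKM in controls and 872, 902, 904, 840.1 and 883 FPKM in Hdac1 cKO mice (log2 fold change -0.18, adjusted p = 0.297). Rps27l and Rpl7 were the only genes of the family whose groups did not overlap with the mutant lower, and 2.15% of all genes tested did so. Rpl41 was the third, at 9218 to 10934 FPKM in controls and 7924 to 9522 FPKM in Hdac1 cKO mice, which overlap (log2 fold change -0.18, adjusted p = 0.369).

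The summed level of 8 choroid plexus markers also differed between these groups, with a median of 16095 FPKM (665 to 21431) in controls and 155 FPKM (104 to 1719) in Hdac1 cKO mice. All 8 markers were lower at an unadjusted p under 0.05 and 0 were called. Of 8 neuron markers 4 were higher (3 at that p, as were 4.91% of all genes) and 4 lower (0 at that p). Of 8 oligodendrocyte markers 4 were higher (0 at that p) and 4 lower (1 at that p). Among 5 nuclear retained RNAs 1 was lower at that p, and 1 astrocyte and 1 microglia marker were higher at that p. In each of these lists 0 were called. The part of these cells and RNAs in the values above was not tested.

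The effect of the 5XFAD transgenes was examined in 5XFAD against control hippocampus. Thy1, whose promoter drives the transgenes, was at 1563 to 2357 FPKM in 5XFAD and compound mice and 303 to 388 FPKM in the others. No ribosomal protein gene passed the test here either. Of 81 tested, 0 were called with limma (0.708% of all genes were) and 0 were past 1.5-fold with an unadjusted p under 0.05 (2.95% of genes). An unadjusted p under 0.05 was met by 0 higher and 1 lower gene, against 5.25% and 5.46% of genes. The median log2 fold change was -0.05, against -0.0088 for all genes, and it turned to 0.04 both after quantile normalization and after rescaling to the genes outside the family. The 95% interval lay inside 1.5-fold for 74 genes (91.4%), against 63.1% of all genes.

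The single gene with an unadjusted p under 0.05 was Rpl14, a large subunit protein of the 60S surface, named here after its values were seen. It was at 571, 569, 556 and 537 FPKM in controls and at 407 FPKM (lowest), 449 (median) and 514 FPKM (highest) in the 6 5XFAD mice. The log2 fold change was -0.29 (SE 0.087, limma adjusted p = 0.223). In the same comparison, 6 of 8 astrocyte markers were higher and 2 lower, with a median log2 fold change of 0.14. Only 1 of them was called, Gfap (log2 fold change 1.90, limma adjusted p = 1.86e-06). Of 8 microglia markers 4 were called higher, with a summed marker level of 152 to 214 FPKM in controls and 354 to 498 FPKM in 5XFAD mice. Of the choroid plexus markers 8 of 8 were lower (0 at an unadjusted p under 0.05), with a median sum of 4587 FPKM (101 to 8344) against 16095 FPKM (665 to 21431) in controls, and 7 of 8 oligodendrocyte markers were higher (2 at that p), with 0 called in either list. The part of these cells in the Rpl14 values was not tested.

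The effect of losing Hdac1 in a 5XFAD hippocampus was examined in compound against 5XFAD mice, whose libraries come under one protocol text. Hdac1 fell by 1.66 on the log2 scale (adjusted p = 0.000785) and was the only gene of 14326 called, 0.00698% of them. Of the 81 ribosomal protein genes tested, 0 were called with limma and 0 were past 1.5-fold with an unadjusted p under 0.05 (1.28% of all genes). The unadjusted p was under 0.05 for 7 higher and 0 lower genes, against 3.91% and 2.70% of genes. The family's median log2 fold change was 0.11, with 70 of 81 genes above 0, against a median of -0.00046 and 49.9% above 0 for all genes. That median was 0.0054 after quantile normalization and 0.03 after rescaling to the genes outside the family, and the SD of the same median between single mice was 0.0936. The 95% interval lay inside 1.5-fold for 75 genes (92.6%), against 68.6% of all genes. Beside this, 8 of 8 microglia markers were higher (2 at an unadjusted p under 0.05), 7 of 8 endothelial markers were lower (4 at an unadjusted p under 0.05) and 8 of 8 choroid plexus markers were lower (0 at that p), and none was called. Of 8 astrocyte markers 7 were higher (2 at that p) and 1 lower, with 0 called. The smallest adjusted p among them was that of Aqp4 (log2 fold change 0.91, limma adjusted p = 0.234). The part of these cells in the family's values was not tested.

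The 7 genes with an unadjusted p under 0.05, again chosen after their values were seen, were Rpl23a, Rpl37 and Rpl41 of the large subunit and Rps3a1, Rps24, Rps26 and Rps4x of the small subunit. Rpl23a, at the exit of the tunnel through which a nascent chain leaves, had the largest log2 fold change of these at 0.27 (SE 0.11, adjusted p = 0.734). It was at 1439.95 FPKM (lowest) to 2179.7 FPKM (highest) in 5XFAD mice and 1807 to 2427 FPKM in compound mice, and the groups overlapped, as they did for each of the 7 genes.

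The comparison of compound with control hippocampus crosses both protocol texts and both alleles, and it shares its 4 controls with the comparisons above. The targeted gene, Hdac1, was at 1.15 to 2.52 FPKM in compound mice. Of 80 ribosomal protein genes tested, 0 were called with limma (0.662% of genes) and 0 were past 1.5-fold with an unadjusted p under 0.05 (4.24%). At an unadjusted p under 0.05, 10 were higher and 1 was lower, against 5.34% and 5.15% of all genes. The median log2 fold change was 0.07, against -0.0072 for all genes, and it stayed above 0 under quantile normalization (0.04) and after rescaling (0.08). For 5 genes every compound mouse was above every control, as for 2.75% of all genes.

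These 5 were Rps28, Rps4x, Rpl23, Rps27a and Rpl37a, chosen after their values were seen. Rps28, which lies at the mRNA exit channel, was at 5608, 5273, 5369 and 5065 FPKM in controls and 6144, 6159, 5674, 6179 and 6040.4 FPKM in compound mice (log2 fold change 0.18, SE 0.046, adjusted p = 0.144). Rps4x, the X-linked copy of a small subunit gene, was at 1087, 1159, 1177 and 1049.99 FPKM in controls and 1264, 1304, 1233, 1389 and 1229 FPKM in compound mice (log2 fold change 0.20, adjusted p = 0.211). Rps27a, which is made as a fusion with ubiquitin, had a log2 fold change of 0.14 (adjusted p = 0.321). The gene that was lower was Rpl14, at 417 to 537 FPKM in compound mice against 537 to 571 FPKM in controls (log2 fold change -0.18, limma adjusted p = 0.453). In this comparison 2 of 8 astrocyte markers and 4 of 8 microglia markers were called higher, and summed choroid plexus markers had a median of 209.9 FPKM (102 to 14484) in compound mice against 16095 FPKM in controls, with 8 of 8 lower (5 at an unadjusted p under 0.05, 0 called). Of 8 endothelial markers 7 were lower (1 at that p, Pecam1, log2 fold change -0.64), and 7 of 8 oligodendrocyte markers were higher (1 at that p), with 0 called in either list. The part of these cells in the ribosomal protein values was not tested.

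The effect of the 5XFAD transgenes in an Hdac1-deficient hippocampus was examined in compound against Hdac1 cKO mice, also across the protocol texts. One ribosomal protein gene of 81 was called, Rpl7, where 211 of 14195 genes (1.49%) were called. One other gene, Rpl3l, was past 1.5-fold with an unadjusted p under 0.05, lower in compound mice, against 3.55% of all genes. It reached the minimum mean of 0.5 FPKM only through the Hdac1 cKO mice (mean 1.22 FPKM, against 0.135 FPKM in compound mice, 4 of 5 listed at 0), so a difference was built into its being tested and its count says nothing of the family. With an unadjusted p under 0.05, 22 genes of the family were higher and 2 lower, against 6.31% and 4.03% of genes. The median log2 fold change was 0.10, against -0.0096 for all genes, and it was 0.03 after quantile normalization and 0.06 after rescaling to the genes outside the family. The groups did not overlap, with compound mice higher, for 9 genes of the family and for 2.44% of all genes. The 95% interval lay inside 1.5-fold for 74 genes (91.4%), against 66.8% of all genes.

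Rpl7 was at 872, 902, 904, 840.1 and 883 FPKM in Hdac1 cKO mice and at 1046, 1068, 1023, 1107 and 996 FPKM in compound mice. All 5 compound mice were above all 5 Hdac1 cKO mice, with a log2 fold change of 0.25 (SE 0.056, adjusted p = 0.0425). The controls, at 929 to 1063 FPKM, overlapped the compound mice, and the 5XFAD mice lay from 859.8 to 1058 FPKM with a median of 942. Over the alternative settings the adjusted p of Rpl7 ran from 0.0391 to 0.201. The call held when compound mouse 5 was left out and was lost when any other one of these 10 mice was left out, with an adjusted p of 0.0503 to 0.123.

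The next genes by p in this comparison did not pass the test and were chosen after their values were seen. Rpl41 was at 7924, 9522, 8564, 9413 and 8243 FPKM in Hdac1 cKO mice and 10827, 10360.1, 9793, 10544 and 10018 FPKM in compound mice (log2 fold change 0.24, adjusted p = 0.0890). Rps4x had a log2 fold change of 0.23 (adjusted p = 0.0989), and so did Rps20 (adjusted p = 0.110). All 3 were without overlap, as were, among others, Rps27a, Rpl39, Rpl23 and Rpl37a. The 2 genes that were lower were Rps19bp1, the binding partner that is no subunit, and Rpl3l. Rps19bp1 was at 69.4 to 83.4 FPKM in Hdac1 cKO mice and 56.8 to 72.7 FPKM in compound mice (log2 fold change -0.26, adjusted p = 0.243).

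Beside these values, 4 of 8 microglia markers and 3 of 8 astrocyte markers were called higher in compound than in Hdac1 cKO mice, with summed microglia markers at 176 to 193 FPKM in Hdac1 cKO and 354 to 757 FPKM in compound mice. All 8 neuron markers were lower (2 at an unadjusted p under 0.05, 0 called), with overlapping sums of 1787 to 2005 FPKM and 1623 to 1915 FPKM. Of 8 oligodendrocyte markers 7 were higher (3 at an unadjusted p under 0.05, 0 called), with overlapping sums of 1048 to 1238 FPKM and 1199 to 1953 FPKM. All 7 choroid plexus markers tested were higher and 6 of 8 endothelial markers lower, with 0 called. The part of these cells in the ribosomal protein values was not tested.

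**Figure D2:**
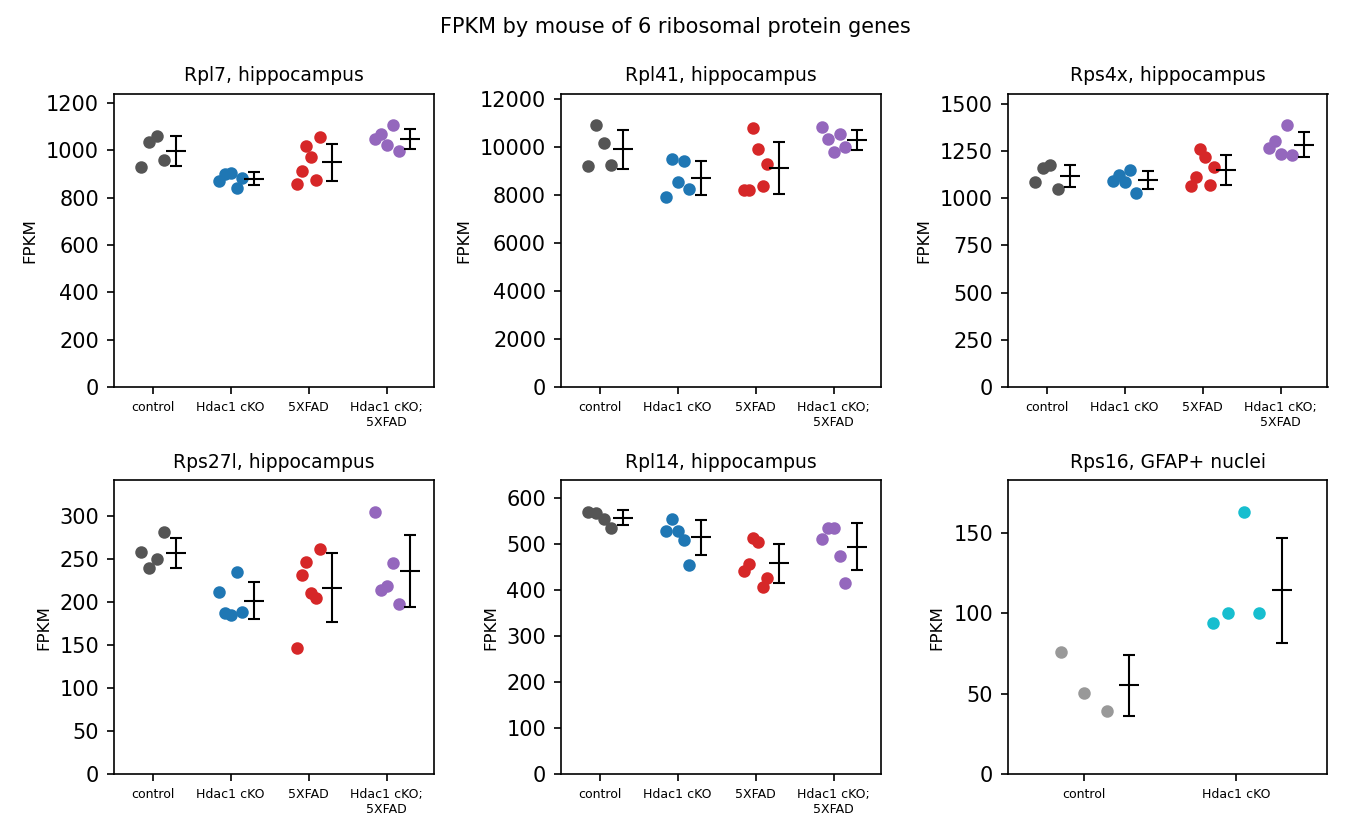
FPKM by mouse (linear y axis from 0) of 5 ribosomal protein genes in the 4 hippocampal groups and of Rps16 in the GFAP+ nuclei; points are libraries and bars the mean ± SD. Rpl7 is at 840.1 to 904 in Hdac1 cKO and 996 to 1107 in compound mice, and Rps16 is at 39.2 to 76.1 in control nuclei and 93.7 to 163 in Hdac1 cKO nuclei.

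Whether loss of Hdac1 acted differently with and without the 5XFAD transgene was tested with an interaction term over the 20 hippocampal libraries. Of 14389 genes tested 0 were called with limma (0%), and of 81 ribosomal protein genes 0 were called. At an unadjusted p under 0.05, 9 of the 81 had a higher interaction term and 0 a lower one, against 4.86% and 4.10% of all genes. The median interaction term of the family was 0.15 on the log2 scale, against 0.0067 for all genes. In the same term 8 of 8 choroid plexus markers were higher (median 1.77) and 8 of 8 endothelial markers lower (median -0.20), with 0 called and 0 at an unadjusted p under 0.05, and 7 of 8 astrocyte markers were higher (2 at that p). Of 8 neuron markers 3 were lower (2 at that p) and 5 higher (0 at that p), with 0 called. The part of these cells in the family's term was not tested. The family's median fell to 0.01 after rescaling to the genes outside the family and changed sign to -0.01 after quantile normalization. The smallest adjusted p was that of Rpl7 (interaction 0.32, SE 0.094, adjusted p = 0.331), followed by Rpl41 (0.36), Rps24 (0.36) and Rps27l (0.49), named after their values were seen.

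**Figure D3:**
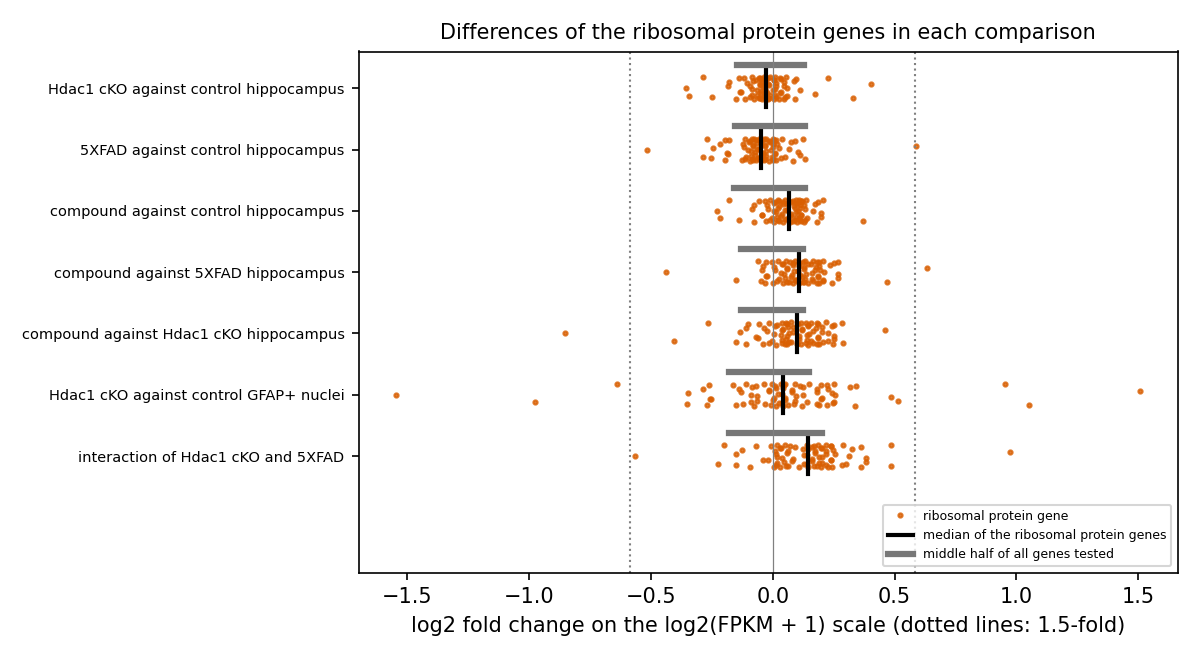
Log2 fold change, on the log2(FPKM + 1) scale, of each ribosomal protein gene tested (points) in 7 comparisons, with the family's median as a black bar and the middle 50% of all genes tested as a grey bar; dotted lines mark 1.5-fold. The medians lie between -0.05 and 0.15, and the points beyond 1.5-fold are mostly in the nuclei.

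By place in the ribosome, none of the groups below held a called gene. In compound against Hdac1 cKO mice, the median log2 fold change was 0.18 for 7 proteins of the exit tunnel (among them Rpl23a, Rpl35 and Rpl39), 0.14 for 7 proteins of the mRNA channel and decoding region (among them Rps23, Rps26 and Rps28) and 0.04 for 5 proteins of the core around the peptidyl transferase centre. The small subunit group with Rps6, the substrate of the S6 kinases, and the ubiquitin fusion Rps27a had a median of 0.15 over 4 genes. Rpl5 and Rpl11, which carry the 5S rRNA and can bind MDM2, had one of 0.13. In Hdac1 cKO against control mice the same 5 medians ran from -0.05 to 0.03.

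The 4 X-linked genes were followed as a group, Rpl10 at the core, Rpl36a, Rpl39 at the exit tunnel and Rps4x. None was called in any comparison. In compound against control mice 4 of 4 were higher, with a median log2 fold change of 0.18 and 2 at an unadjusted p under 0.05 (Rps4x and Rpl39). Of the whole family 78.8% were higher there and of all genes 48.6%, with 5.34% of all genes higher at an unadjusted p under 0.05. Of the 4 X-linked genes, 1 was higher and 3 lower in Hdac1 cKO against control mice (median -0.045). In 5XFAD against control mice 2 were higher and 2 lower (median -0.0091), as in the nuclei (median 0.0050). In compound against 5XFAD and against Hdac1 cKO mice 4 of 4 were higher (medians 0.17 and 0.19). Rpl10, the highest of them beside Rpl39, had a mean of 2023 ± 155 FPKM in controls and 2296 ± 313 FPKM in compound mice, and its values overlapped. Rpl36a was at 1488 ± 92.9 FPKM in controls and 1513 ± 114 FPKM in compound mice.

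The paralogs ranged from abundant to near-silent genes. Rpl36al, at 655 to 909 FPKM over the 20 hippocampal libraries, and Rpl22l1, at 227 to 387 FPKM, were present in every library, and so was Rpl7l1 at 24.98 to 39.5 FPKM. In controls their coefficients of variation were 8.39%, 5.09% and 7.43%. Rpl22l1 stood above its parent gene Rpl22, which had a mean of 76.3 ± 4.07 FPKM in controls. Rps4l ranged from 12.9 to 48.4 FPKM. Coding identity to the parent gene was 87.9% for Rpl36al, 66.9% for Rpl22l1, 53.0% for Rpl7l1 and 76.1% for Rps27l.

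A further 3 paralogs known mainly from muscle or testis were at or near 0. Rpl3l, the copy of Rpl3 made in striated muscle, was at 0.393 to 2.68 FPKM in 4 of 5 Hdac1 cKO mice and listed at 0 in the fifth, while 4 of 5 compound mice were listed at 0 and the other was at 0.677 FPKM. Controls were at 1.83, 0.837, 0 and 0 FPKM, and of 6 5XFAD mice 4 were listed at 0 and the highest was at 0.989 FPKM. In compound against Hdac1 cKO mice the log2 fold change of Rpl3l was -0.85 on the log2(FPKM + 1) scale (limma adjusted p = 0.339). It rests on values near the detection limit, whose depth is unknown without counts. Without Hdac1 cKO mouse 1 Rpl3l no longer reached the minimum mean and 0 genes of the family were past these thresholds, and without compound mouse 3 there were 2. Rpl10l, a copy of Rpl10 used in spermatogenesis, was above 0 in 4 of 5 Hdac1 cKO mice (0.200 to 0.477 FPKM), in 1 of 6 5XFAD mice (0.487 FPKM) and in no other library. Rpl39l was listed at 0 in 11 of the 20 hippocampal libraries and reached at most 2.75 FPKM.

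Rps27 and Rps27rt must be read together. Rps27 lies at chr3:90016593-90017573 on the minus strand and Rps27rt at chr9:114891515-114891858 on the minus strand (mm9), and their coding sequences are identical over all 255 bases. The shared coding sequence (mm9) is printed once, in lower case throughout because no base differs, to show what a read of either gene would hold.
Rps27 and Rps27rt, coding sequence: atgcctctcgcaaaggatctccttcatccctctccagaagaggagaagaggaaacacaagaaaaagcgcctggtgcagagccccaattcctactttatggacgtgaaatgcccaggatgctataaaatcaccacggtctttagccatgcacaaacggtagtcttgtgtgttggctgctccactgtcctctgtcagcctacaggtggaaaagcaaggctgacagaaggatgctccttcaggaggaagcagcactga
The transcripts, 345 and 344 bases long, aligned with 342 identical bases, 5 gap positions and 0 mismatches. All 225 of the 31-base words in the coding sequence of Rps27 are also in Rps27rt.

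The single genes varied more between libraries than their sum. In controls Rps27 was at 3090.1, 2942, 2896 and 1837 FPKM and Rps27rt at 7569, 7919, 7173 and 8348 FPKM, so that Rps27 held 18.0% to 29.0% of the sum. Over all 20 hippocampal libraries that share ran from 12.4% to 47.1%. The sum had a coefficient of variation of 3.61% in controls, 10.1% in Hdac1 cKO, 19.5% in 5XFAD and 4.87% in compound mice, against 21.4%, 29.9%, 46.7% and 27.4% for Rps27 alone. In the nuclei, Rps27 held 90.1% of the sum in control library 1 and 3.63% to 5.68% in the other 6 libraries, while the sum lay between 124 and 174 FPKM. The sum did not pass the test in any comparison (smallest adjusted p 0.435, in compound against Hdac1 cKO mice, log2 fold change 0.16).

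**Figure D4:**
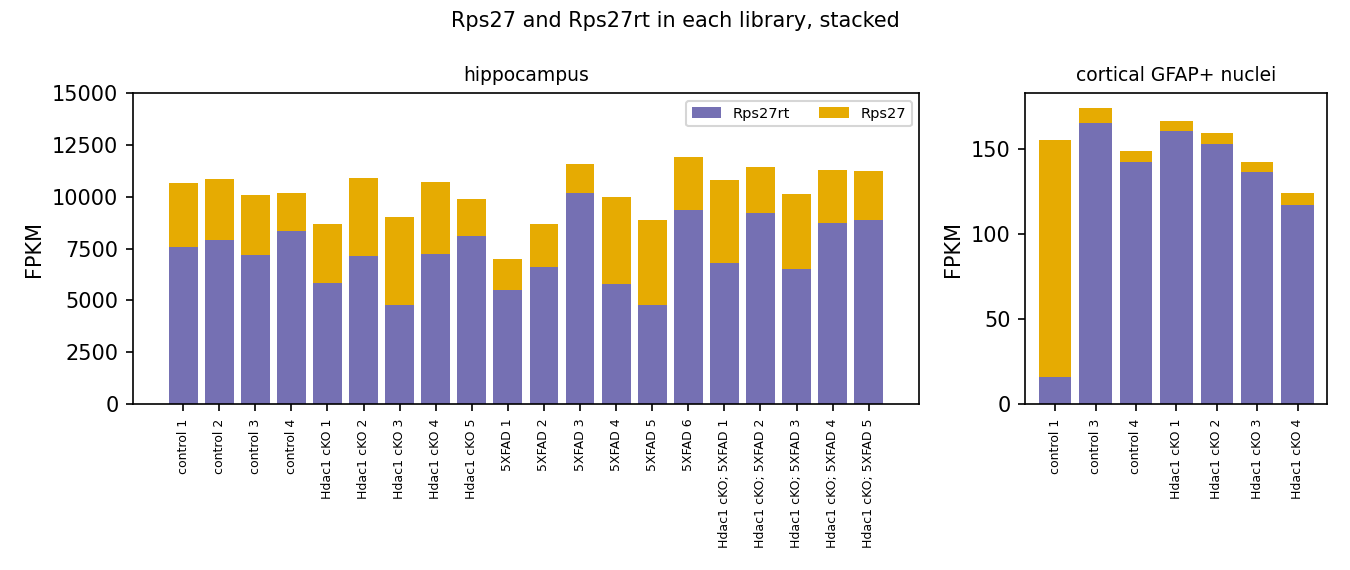
FPKM of Rps27 and Rps27rt stacked for each library (bars from 0), hippocampus on the left and GFAP+ nuclei on the right with its own y axis. The height of the stack varies less than the split, which in control nuclei library 1 gives Rps27 90.1% of the sum and in the other nuclei libraries at most 5.68%.

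Rpl34 has a second locus of nearly the same sequence. Rpl34-ps1 (chr6:71074583-71074994, plus strand, mm9) was left out by its symbol, matches 352 of the 354 coding bases of Rpl34 and was listed at 2119.9 to 2891 FPKM in the hippocampus. Rpl34 held 3.98% to 9.28% of the sum of both there and 7.29% to 24.0% in the nuclei. Reads of either locus cannot be told apart by most of their bases, so the values of Rpl34 alone are uncertain.

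The GFAP+ nuclei held far less of the family. The share of all FPKM was 1.31% ± 0.0517 (n = 3) in control nuclei and 1.36% ± 0.0432 (n = 4) in Hdac1 cKO nuclei, and no ribosomal protein gene was among the 100 highest genes of any nuclei library. In control nuclei 0 of the 45 genes above 1000 FPKM and 20 of the 613 above 100 FPKM were of the family, against 73 of 967 above 100 FPKM in control hippocampus. The tissues differ in region, in RNA fraction and in library kit (a 3′ end method against a full-length one), so their values are set side by side with no test. Summed astrocyte markers were at 2757 to 3362 FPKM in the nuclei and 1149 to 1584 FPKM in the hippocampus, and neuron markers at 213 to 318 FPKM and 1616 to 2005 FPKM. Oligodendrocyte markers were at 488 to 1349 FPKM in the nuclei and 1048 to 1953 FPKM in the hippocampus. Malat1, a nuclear RNA, was listed at 0 in every nuclei library, so a 0 in these files need not mean absence.

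Of 81 genes at 0.5 FPKM or more in both control groups, the median stood in the nuclei at 6.40% of its hippocampal FPKM (quartiles 4.06% and 10.6%), against 118% for all genes. Only Rpl7l1 (130%) and Rpl3l (477%) were higher in the nuclei, while 55.8% of all genes were. The largest remainders were Rpl30 at 60.7%, Rps19bp1 at 32.2%, Rps4l at 32.1% and Rps2 at 26.1%. Apart from Rps27 and Rps27rt, which cannot be ranked singly, the lowest were Rps21 at 1.24%, Rps29 at 1.40% and Rps28 at 1.44%, which are among the 6 highest of the family by symbol in control hippocampus. Their transcripts are short, at 394, 390 and 437 bases against a median of 761. FPKM and transcript length had a Spearman correlation of -0.53 in control hippocampus and -0.24 in control nuclei. The part of length and library kit in these percentages was not tested. The ribosomal proteins with other symbols (7 genes, among them Rplp0, Rplp1, Rplp2 and Rpsa) had a median of 5.43%, elongation factors 42.3%, initiation factors 60.3%, ribosome assembly and nucleolar genes 64.5% and RNA polymerase I genes 105%. The order of the family was in part kept, with a Spearman correlation of 0.70 between tissues over all 83 genes. These include Rpl10l and Rpl39l, which were listed at 0 in control nuclei. Over the 13428 genes at 0.5 FPKM or more in both control groups it was 0.65. The Rpl sum divided by the Rps sum was 1.49 to 1.75 in the nuclei.

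**Figure D5:**
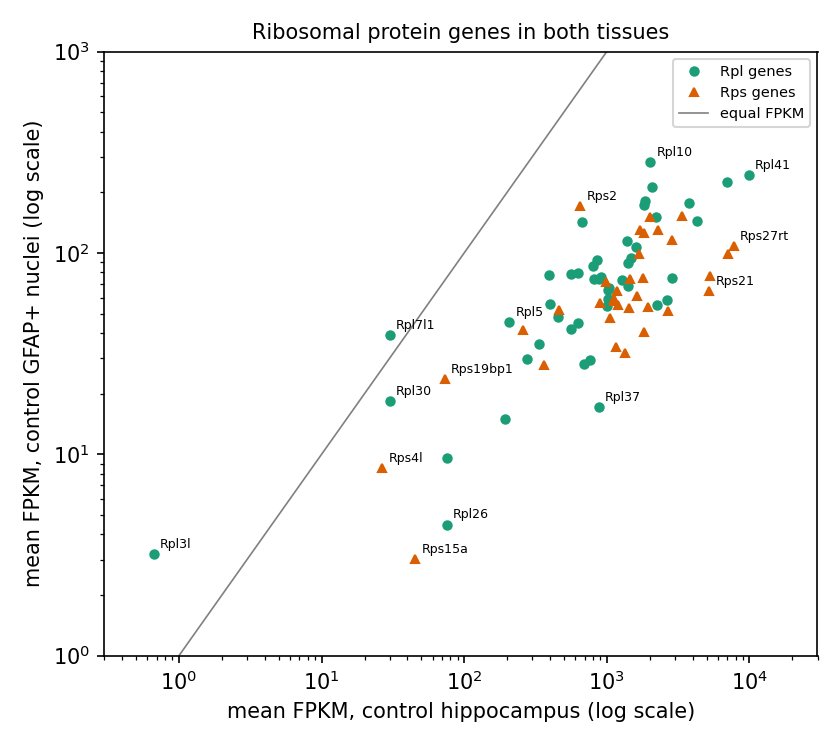
Mean FPKM of each ribosomal protein gene in control hippocampus (x axis, log scale) and control GFAP+ nuclei (y axis, log scale), Rpl and Rps genes in different colours, without Rpl10l and Rpl39l, which were listed at 0 in control nuclei. Rpl7l1 and Rpl3l are the only genes above equality, and the median gene lies at 6.40% of its hippocampal level.

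The effect of losing Hdac1 in the GFAP+ population was examined in Hdac1 cKO against control nuclei. Hdac1 itself was at 9.91 to 22.3 FPKM in control and 5.80 to 11.5 FPKM in Hdac1 cKO nuclei, which overlap (log2 fold change -0.70, 95% interval -1.32 to -0.079). It passed the study's thresholds (limma unadjusted p = 0.0308) and was not called (adjusted p = 0.984). Of 81 ribosomal protein genes 0 were called with limma, where 2 of 15070 genes (0.0133%) were. Past 1.5-fold with an unadjusted p under 0.05 were 3 genes, 1 higher and 2 lower, against 2.58% of all genes. At an unadjusted p under 0.05, 4 were higher and 2 lower (2.44% and 2.26% of genes), and groups did not overlap for 5 higher and 2 lower genes (2.97% and 2.75%). The median log2 fold change was 0.04, against -0.0065 for all genes, and it was -0.0033 without control library 1. The 95% interval lay inside 1.5-fold for 53 genes (65.4%), fewer than in any hippocampal comparison, against 33.4% of all genes.

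Cell type markers differed in direction between the nuclei groups, with 0 called. Of 7 choroid plexus markers tested 6 were higher in Hdac1 cKO nuclei (2 at an unadjusted p under 0.05), among them Ttr (log2 fold change 2.89) and, without overlap, Folr1 (1.04), and their sums were 51.2 to 214 FPKM in control and 151 to 343 FPKM in Hdac1 cKO nuclei. Of 8 astrocyte markers 7 were higher (2 at that p), and of 8 oligodendrocyte markers 7 were lower (0 at that p). Of 8 endothelial markers 3 were higher (0 at that p) and 5 lower (1 at that p), with a median log2 fold change of -0.15. The 1 at that p was Cldn5, lower without overlap (-0.68, limma adjusted p = 0.984), as were 2.75% of all genes. Ttr, Folr1 and Cldn5 were named after their values were seen. The part of these cells in the ribosomal protein values was not tested.

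The 3 genes past the study's thresholds in the nuclei were Rps16, Rpl30 and Rpl34. Rps16, a small subunit protein near the decoding site, was at 76.1, 50.3 and 39.2 FPKM in control nuclei and 93.7, 100.2, 163 and 100.2 FPKM in Hdac1 cKO nuclei. Every Hdac1 cKO library was above every control (log2 fold change 1.05, SE 0.25, unadjusted p = 0.00165, limma adjusted p = 0.984). In the hippocampus Rps16 did not separate the genotypes, with 1203 ± 76.5 FPKM in controls and 1170 ± 126 FPKM in Hdac1 cKO mice.

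Rpl30 was at 14.7, 15.05 and 25.1 FPKM in control nuclei and 11.7, 5.10, 6.52 and 13.2 FPKM in Hdac1 cKO nuclei, without overlap (log2 fold change -0.98, adjusted p = 0.984). Rpl34 was at 11.4, 11.8 and 21.6 FPKM and at 9.92, 6.08, 8.70 and 11.6 FPKM, which overlap (log2 fold change -0.64, adjusted p = 0.984). Summed with Rpl34-ps1 its log2 fold change was 0.06 (limma adjusted p = 0.996), of the opposite sign. The largest fitted values of the family in the nuclei were those of Rps27 and Rpl26. Rps27 (-1.54) was at 139.9 FPKM in control library 1 and at 5.77 to 8.53 FPKM in the other 6 libraries, and Rpl26 (1.51) was at 0, 13.4 and 0.0014 FPKM in control and 11.7, 0.0022, 11.2 and 13.8 FPKM in Hdac1 cKO nuclei, so libraries of both groups were near 0. Neither had an unadjusted p under 0.05.

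The rest of the pathway was read from lists of its genes. Of 7 ribosomal proteins with other symbols, 8 elongation factors, 44 initiation factors, 41 assembly and nucleolar genes, 14 RNA polymerase I genes and 14 genes of TOP mRNA and growth control that were tested, 0 were called with limma in any of the 7 comparisons. At an unadjusted p under 0.05 these lists held between 0 and 5 higher and between 0 and 4 lower genes per comparison. The most were 5 of 44 initiation factors higher in compound against control mice, where 5.34% of all genes were, and 4 of 41 assembly and nucleolar genes lower in 5XFAD against control mice, where 5.46% were. Of 10 other mRNAs with a TOP motif, 1 was called, Vim, an intermediate filament gene that reactive astrocytes also raise. Vim rose by a log2 fold change of 1.16 in 5XFAD against control mice (limma adjusted p = 0.0152), where 0.708% of all genes were called. In compound against Hdac1 cKO mice it rose by 1.90 (limma adjusted p = 0.0309), where 1.49% of all genes were called. In compound against control mice it was higher by 1.46 and was not called (limma adjusted p = 0.247). The summed FPKM of the 7 ribosomal proteins with other symbols lay at 14973 to 16738 in controls, 15875 to 17844 in Hdac1 cKO, 15499 to 18033 in 5XFAD and 16361 to 18236 in compound mice, which overlap.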

How the data were processed

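RNA-seq of hippocampus and of GFAP+ cortical nuclei was analysed in 27 of 34 samples; 6 ChIP-seq samples and GFAP+ control 2 were not analysed here. The authors deposited FPKM per gene; the submitters' processing notes name TopHat, Cufflinks 2.0.0 and mm9, which the study's methods describe for the hippocampus. The libraries were High-Throughput 3′ Digital Gene Expression libraries (hippocampus) and SMART-Seq v4 libraries (nuclei). FPKM divides by transcript length, which a 3′ method does not sample, and shared reads are split between near copies by estimate. No counts were used, so no count test was run and the depth behind each value is unknown; relative depth, read from the steps of low values, spanned 0.758 to 2.36 times control 1 in the hippocampus and 0.871 to 1.27 times in the nuclei.

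Values were tested as log2(FPKM + 1) with limma 3.58.1 (R 4.3.3; trend and robust moderation), over every gene averaging 0.5 FPKM or more in the groups compared, without covariates. A call is a Benjamini-Hochberg adjusted p under 0.05 over all genes tested; the study's thresholds of 1.5-fold with an unadjusted p under 0.05 are given beside it. Tests are two-sided. The p-values measure the spread between samples labelled as separate. Hippocampal comparisons share control or other groups. The fits were tested on simulated data. Levels and sequences were handled in Python 3.11.15 with pandas 2.3.3. Positions are mm9, start windows GRCm38.p6 (RefSeq); 81 members had an mm9 position.

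Named genes were those called, those past the study's thresholds, the 5 highest and 5 lowest in control hippocampus, and all paralog, X-linked and non-subunit genes; exceptions are stated. The genes and lists were chosen with earlier results of these data known. Alternatives were another pseudocount (0.1), no filter or a minimum mean of 1 FPKM, quantile and median scaling, rescaling to the genes outside the family, plain moderation, a replicate block, one fit over all hippocampal groups, leaving out each library, and near copies summed (added after seeing the data).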

Additional observations from a re-analysis of the deposited data

Results flagged for a closer look

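In each group of 4 to 10 libraries, a value was marked when the highest or lowest library stood apart from the rest by Dixon's test at 95%. Of 117 groups over 24 quantities, 9 were marked, and chance marks about 1 group in 20. Among them, 3 are single libraries above 0 in a group otherwise listed at 0: Rpl10l in 5XFAD mouse 4 (0.487 FPKM), Rpl39l in control mouse 4 (0.347 FPKM) and Rpl3l in compound mouse 5 (0.677 FPKM). Such a group is marked whatever the value, so the rate of 1 in 20 does not apply to it. Rpl30 was at 19.5 FPKM in control mouse 3 and at 32.5 to 34.7 FPKM in the other controls. Rpl39 was at 1929 FPKM in Hdac1 cKO mouse 1 and at 2182 to 2265 FPKM in the others of that group, and the same mouse had the lowest share of all FPKM in the family, 14.9% against 16.1% to 16.5%. Rps28 was at 5674 FPKM in compound mouse 3 and at 6040.4 to 6179 FPKM in the others, and Rps4l in that mouse was at 43.0 FPKM against 19.6 to 21.7 FPKM. Rps16 was at 163 FPKM in Hdac1 cKO nuclei library 3 and at 93.7 to 100.2 FPKM in the other 3.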

How the results depend on the processing

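Over 47 results, 906 of 945 alternative values were scored as unchanged. A count was unchanged within 1.5-fold of the reported count, or at 0 where that was 0. A single gene was unchanged when it kept its sign and its side of the threshold, so a gene not called needed only to stay uncalled. A median was unchanged when it moved by less than its SD between mice. Within that SD the family's median still changed sign in Hdac1 cKO against control mice (0.0065 under quantile normalization, 0.03 after rescaling to the genes outside the family), in 5XFAD against control mice (0.04 under both) and in the nuclei without control library 1 (-0.0033). In compound against Hdac1 cKO mice the 1 called gene, Rpl7, was lost (0 called) under median scaling, rescaling to the genes outside the family, moderation without trend or robust steps, and the fit over all 4 hippocampal groups, and the count ran from 0 to 2 when single mice were left out. With the replicate number as a block it was also 0 (Rpl7 adjusted p = 0.182). Under quantile normalization Rps20 was called (0.0408) in place of Rpl7 (0.0959), and without Hdac1 cKO mouse 2 Rpl41 (0.0394) and Rps20 (0.0323) were called. The 1 gene past 1.5-fold there became 0 with a mean of at least 1 FPKM, which Rpl3l does not reach, and 0 to 2 with single mice left out. The family's median moved to 0.0054 in compound against 5XFAD mice under quantile normalization, and the interaction median to -0.0142 under quantile normalization and 0.0124 after rescaling. Rpl34 in the nuclei reversed to 0.0559 when summed with its near copy, an alternative chosen after seeing the data. Replicate numbers were shared between groups, but same-numbered libraries did not deviate together (correlations from -0.113 to 0.0778), so the numbers were not used as pairs and the block changed no other call of the family. Genes near 0 and the 3 against 4 nuclei limit which differences can be seen.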
